A study of Mus musculus with 9 samples.

Results

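Interferon-stimulated genes are described here in mouse calvarial cells, the bone-forming cells of the skull vault, as they were differentiated into osteoblasts in culture. The 9 members are Isg15, Usp18, Ifit1, Ifit2, Ifit3, Bst2, Irf7, Stat2 and Ifi35. They were taken by gene symbol from tables of 40548 genes, with earlier results of these data known, and each symbol matched 1 row. All 9 passed the filter on low values and were among the 12712 genes tested between day 0 and day 7.

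RNA was sequenced from 9 libraries, 3 at each of 3 stages. All came from primary calvarial cells of newborn C57BL/6 mice, at postnatal day 2 to 3 in the sample labels, with pups of both sexes used for such cultures. The day 0 cells were undifferentiated, and the day 4 and day 7 cells had been kept for that many days in medium that induces differentiation (ascorbic acid together with β-glycerol phosphate), so no group received interferon or an infectious agent. How many pups went into each culture is not given in the sources used here. Mineralized cultures were dissociated with collagenase before lysis, so that step differed between the stages.

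Type I interferons are secreted proteins that bind the receptor formed by Ifnar1 and Ifnar2 and activate the kinases Jak1 and Tyk2. These phosphorylate Stat2, which binds Irf9 and enters the nucleus in a complex that recognises a repeated element, the interferon-stimulated response element, in the promoters of its target genes. Low expression of many such genes is also seen in cells that have met no virus, and interferon signalling is known in bone as a brake on osteoclast formation.

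The response element is where that complex binds its target genes, so the stretches of promoter that hold a match to it are shown first. RefSeq promoters (GRCm38.p6, 250 bases before to 50 after the start of transcription) were given for 8 members. They were searched on both strands for the core GAAANNGAAA, a pair of GAAA repeats with 2 free bases between them, and for a longer form with the core followed by CT. In the stretches below, written 5′ to 3′ on the strand of the gene, capitals mark a match to the core or, where it is present, the longer form, and a match on the other strand reads as TTTCNNTTTC.
Isg15, chr4:156200860-156200911, minus strand: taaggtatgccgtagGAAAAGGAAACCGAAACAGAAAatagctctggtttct
Ifit1, chr19:34640768-34640828, plus strand: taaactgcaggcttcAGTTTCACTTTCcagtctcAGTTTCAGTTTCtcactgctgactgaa
Ifit3, chr19:34583356-34583431, plus strand: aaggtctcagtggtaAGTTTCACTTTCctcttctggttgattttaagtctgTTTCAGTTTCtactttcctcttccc
Bst2, chr8:71537572-71537617, minus strand: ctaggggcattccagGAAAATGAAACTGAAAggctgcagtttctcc
Stat2, chr10:128270261-128270300, plus strand: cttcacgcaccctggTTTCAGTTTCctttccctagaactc

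The core was found in the promoters of these 5 of the 8 members, against 3.99% of 27025 genes with RefSeq promoters of the same length. Isg15 held 3 overlapping copies between 78 and 57 bases before its start, and Bst2 held 2 overlapping copies between 130 and 115 bases before its start. Ifit1 and Ifit3 held 2 separate copies each, and Stat2 held 1 copy 222 to 213 bases before its start. The longer form was found in Ifit1, with 2 copies, and in Ifit3 and Bst2, with 1 each, against 0.303% of all genes with RefSeq promoters. Ifit1 is transcribed away from its paralog Ifit1bl2, whose start lies 146 bases upstream, and the matches lie between the starts of both genes. The stretch shown for Ifit3 was identical, with 0 differences over 76 bases, to the one in the promoter of its paralog Ifit3b.

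A gamma-activated site, here the letters TTCNNNGAA, is an element of genes that respond to interferon-gamma. It was found in the promoters of Ifit2, Bst2 and Ifi35, against 9.55% of all genes with RefSeq promoters. The copy in Bst2 shares bases with its response element. Irf7 held neither element in this window but had the letters TATAAA, the TATA box, 29 to 24 bases before its start. This motif was found in 15.7% of all genes with RefSeq promoters. A match in such a window is a description of the letters and does not show that a factor was bound there in these cells.

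**Figure D1:**
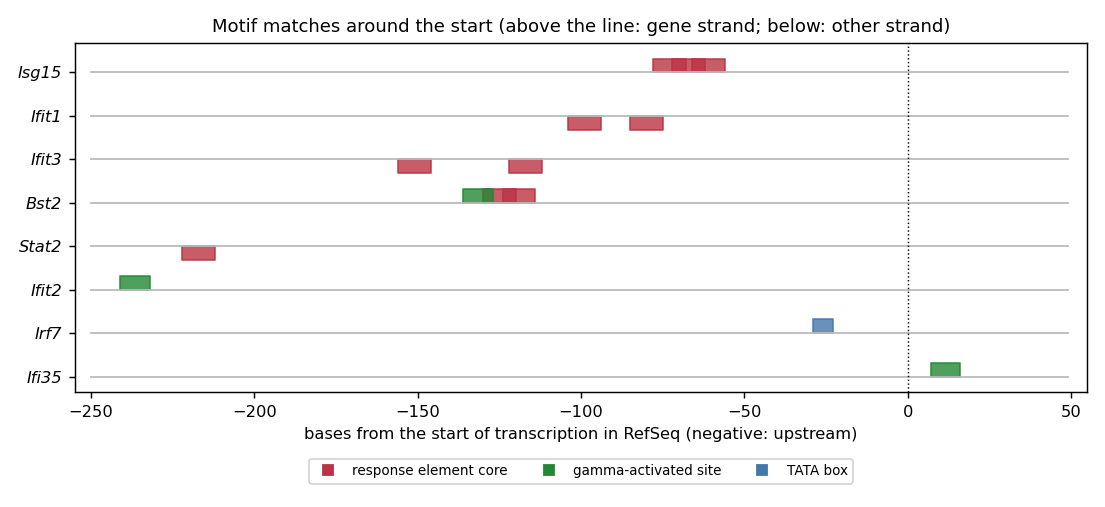
Positions of motif matches in the promoters of 8 members, in bases from the RefSeq start of transcription (x axis, negative values upstream), with 1 row per gene. Boxes above each line are on the strand of the gene and boxes below it on the other strand. The core matches of 5 genes lie from 222 to 57 bases before the start, and Ifit2 (drawn at the 1 of its 2 listed starts that has a match), Irf7 and Ifi35 have no core match.

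The deposited tables hold reads assigned to genes as CPM (the reads of a gene scaled to a common total of assigned reads) and as RPKM (the same per kilobase of gene length), and every CPM value was a whole multiple of what 1 read is worth, within a tolerance of 0.05 reads, so read numbers could be recovered. Day 0 libraries held 7741204 to 14013219 reads, day 7 libraries 10675858 to 15622755 and day 4 libraries 32820610 to 37306090. Days 0 and 7 share a table and are compared with a test, whereas day 4 was in a table of its own and deeper, so its levels are set beside the others without a test. Markers of the labelled cell type were present, and 8 of 9 osteoblast genes rose by day 7, beside 12.6% of all genes tested. Among them was Ibsp, a mineral-binding matrix protein, at 9.43 ± 0.16 (SE, n = 3 per group) on the log2 scale. Bglap and Dmp1, which also rose, had means of 0.340 and 0.540 CPM at day 0, so they passed the filter on low values through day 7. The 5 features that stood apart between libraries were Plekhh2, Lars2, Mir6236, Gm42418 and Gm15564, which together took 1.66% to 19.0% of the reads of a library. Day 0 replicate 3 held both the highest of these shares and the fewest reads, and because it changes many calls the results that turn on it are given with and without it.

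Between day 7 and day 0, 6 of the 9 members rose, 0 fell and 3 did not pass (limma on log2(CPM + 0.5), Benjamini-Hochberg adjusted p under 0.05 over all genes tested). The background was 1602 genes higher, 12.6% of those tested, and 2369 lower, 18.6%. The median log2 fold change was 1.26 over the members and -0.11 over all genes tested. Of the 9 members, 1 (Ifi35) was lower at an unadjusted p under 0.05. All 3 libraries of day 7 lay above all 3 of day 0 for 6 members, against 16.9% of genes, and below them for 1, against 25.4%. With median-of-ratios scaling the median of all genes moved by 0.10 to -0.01, and the share of calls that were higher went from 40.3% to 51.8%, while 6 members were still higher. The count of genes lower turned on single libraries, at 1521 without day 0 replicate 2, 4699 without day 0 replicate 3 and 1554 without day 7 replicate 2, and 6 members were higher without any 1 of the 6 libraries.

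**Figure D2:**
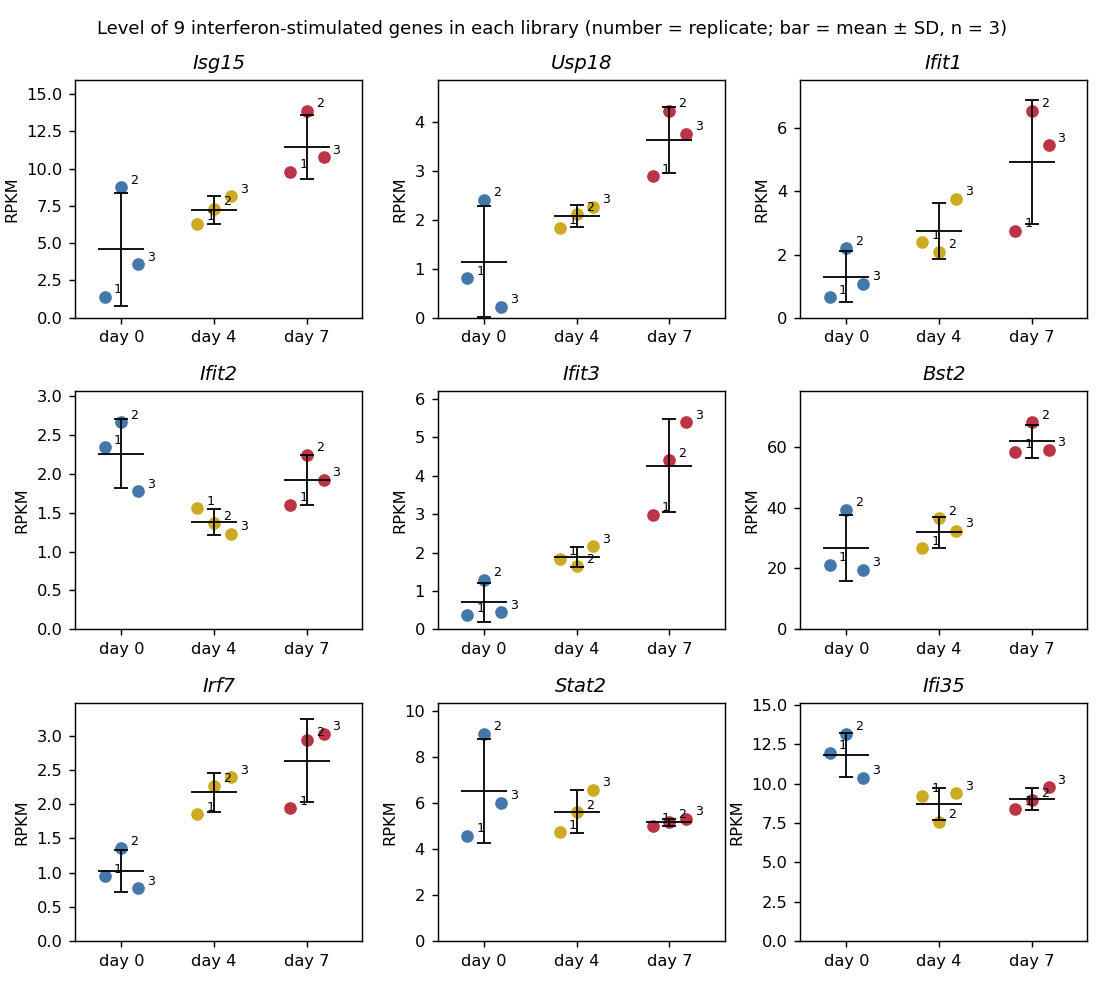
Level of each member in RPKM (y axes, each starting at 0) in the 9 libraries, grouped by day (x axes), with points for libraries numbered by replicate and bars for the mean ± SD of 3 libraries. Day 7 points lie above all day 0 points for Isg15, Usp18, Ifit1, Ifit3, Bst2 and Irf7, and replicate 2 is the highest point of day 0 in all 9 panels.

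Isg15 encodes a ubiquitin-like protein that is attached to other proteins and is also secreted. Its level was 1.42, 8.74 and 3.59 RPKM in day 0 replicates 1, 2 and 3, then 6.28, 7.30 and 8.14 at day 4, and 9.78, 13.9 and 10.7 at day 7. The day 7 libraries all lay above the day 0 libraries, but day 0 replicate 2 was above all 3 day 4 libraries. From day 0 to day 7 the log2 fold change was 1.46 ± 0.28 (SE, adjusted p = 5.43e-05). The ratio of mean levels was 2.50 with every library and 4.58 without day 0 replicate 2, and 79 reads stood behind that library against 15 and 21 in the other two. Isg15 was the only member raised here whose call was lost under an alternative. With DESeq2 on the recovered reads its log2 fold change was 1.46 ± 0.71 (SE, adjusted p = 0.0891), a wider SE than in the limma fit.

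Usp18 encodes the protease that removes Isg15 from its targets and also damps signalling at the interferon receptor. Day 0 levels were 0.806, 2.41 and 0.219 RPKM, from 20, 51 and 3 reads, day 4 levels 1.84, 2.12 and 2.27, and day 7 levels 2.89, 4.23 and 3.76. Its day 7 libraries stood clear of both other stages, while day 0 replicate 2 was above every day 4 library, as for Isg15. Day 7 differed from day 0 by 1.77 ± 0.31 on the log2 scale (SE, adjusted p = 9.99e-06), and the ratio of means, 3.17 over all libraries, was 7.08 without day 0 replicate 2.

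The IFIT proteins bind viral RNA or translation initiation factors, and their genes lie beside each other on chromosome 19. Ifit3 had the largest change of the 9. Its levels were 0.368, 1.29 and 0.444 RPKM at day 0, from 9, 27 and 6 reads, then 1.83, 1.64 and 2.16 at day 4, and 2.98, 4.40 and 5.39 at day 7. The 3 stages did not overlap, and each later stage was higher than the one before. The log2 fold change from day 0 to day 7 was 2.28 ± 0.27 (SE, adjusted p = 1.36e-09), with a ratio of means of 6.06, or 10.5 without day 0 replicate 2. Of the 50-base stretches in the exons of Ifit3, 51.2% also occur in another gene, most often Ifit3b. The paper counted only reads that aligned uniquely and without ambiguity, so reads from shared stretches could be missing from both genes. Ifit3b itself had a log2 fold change of 1.57 ± 0.28 (adjusted p = 1.75e-05) at levels of 0.107 to 0.376 RPKM at day 0 and 0.842 to 1.5 at day 7. Its mean was 0.494 CPM at day 0 and 2.43 at day 7, so it passed the filter on low values through day 7.

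Ifit1 stood at 0.644, 2.20 and 1.07 RPKM at day 0, at 2.40, 2.10 and 3.77 at day 4, and at 2.76, 6.56 and 5.47 at day 7. Day 7 was above day 0 in every library, and day 4 overlapped both. This gave a log2 fold change of 1.83 ± 0.26 (SE, adjusted p = 2.07e-07), and the ratio of means was 3.77, or 5.75 without day 0 replicate 2. Its paralogs Ifit1bl1 and Ifit1bl2 had at most 13 and 9 reads in a library and were not tested.

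Ifit2, the neighbour of Ifit3 on the chromosome, took another course. Its levels were 2.34, 2.66 and 1.78 RPKM at day 0, 1.56, 1.36 and 1.23 at day 4, and 1.60, 2.24 and 1.92 at day 7. Day 4 lay below both other stages in every library, and days 0 and 7 overlapped. The log2 fold change from day 0 to day 7 was -0.21 ± 0.20 (SE, adjusted p = 0.461, 95% interval -0.63 to 0.20).

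Bst2, or tetherin, holds budding virus particles at the cell surface and was the most abundant member at every stage. It stood at 21.2, 39.2 and 19.6 RPKM at day 0, at 26.6, 36.5 and 32.3 at day 4, and at 58.2, 68.0 and 59.0 at day 7. Day 7 was above every library of both other stages, which overlapped each other. Bst2 rose by 1.26 ± 0.19 on the log2 scale (SE, adjusted p = 4.14e-07), on 116 to 358 reads at day 0 and 555 to 705 at day 7. This is the member with the most reads among those that rose, and its ratio of means was 2.32, or 3.03 without day 0 replicate 2.

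Irf7 is the transcription factor that amplifies type I interferon production. It was at 0.945, 1.36 and 0.770 RPKM at day 0, 1.86, 2.27 and 2.40 at day 4, and 1.94, 2.95 and 3.03 at day 7. Both later stages were above day 0 in every library and overlapped each other. The ratio of means to day 0 was 2.12 at day 4 and 2.58 at day 7. The log2 fold change from day 0 to day 7 was 1.24 ± 0.23 (SE, adjusted p = 2.21e-05). Its exons share 45 bases, 1.19% of their length, with Phrf1 on the other strand.

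Stat2, the DNA-binding complex's transactivating subunit, did not pass. Its levels were 4.56, 8.99 and 5.99 RPKM at day 0, 4.72, 5.59 and 6.55 at day 4, and 4.99, 5.17 and 5.31 at day 7. The day 7 libraries lay close together and inside the range of day 0. Stat2 had a log2 fold change of -0.28 ± 0.19 (SE, adjusted p = 0.274, 95% interval -0.65 to 0.10). Without day 0 replicate 1 it was -0.50, with an adjusted p of 0.0489.

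Ifi35 encodes a leucine-zipper protein of the cytoplasm. It was measured at 12, 13.2 and 10.4 RPKM at day 0, at 9.24, 7.57 and 9.39 at day 4, and at 8.39, 8.94 and 9.78 at day 7. Both later stages were below day 0 in every library. The log2 fold change from day 0 to day 7 was -0.38 ± 0.18 (SE), and the adjusted p of 0.103 missed the threshold. It passed with an adjusted p of 0.0102 without day 0 replicate 3, 0.0139 with the 5 variable features left out of the totals, and 0.0329 with the weighted voom fit. The antisense gene Gm11626 shares 290 exonic bases, 16.8% of those of Ifi35, but had at most 0.167 CPM in any library.

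For each of the 7 members whose stages did not overlap, the exact two-sided permutation test between days 0 and 7 gave p = 0.1, the smallest that 3 libraries against 3 allow. For Ifit2 the exact permutation test gave p = 0.4 and for Stat2 p = 0.5. Adjusted p-values under the threshold thus rest on the estimate of variance shared across genes, with 42.9 prior degrees of freedom beside 4 residual ones.

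**Figure D3:**
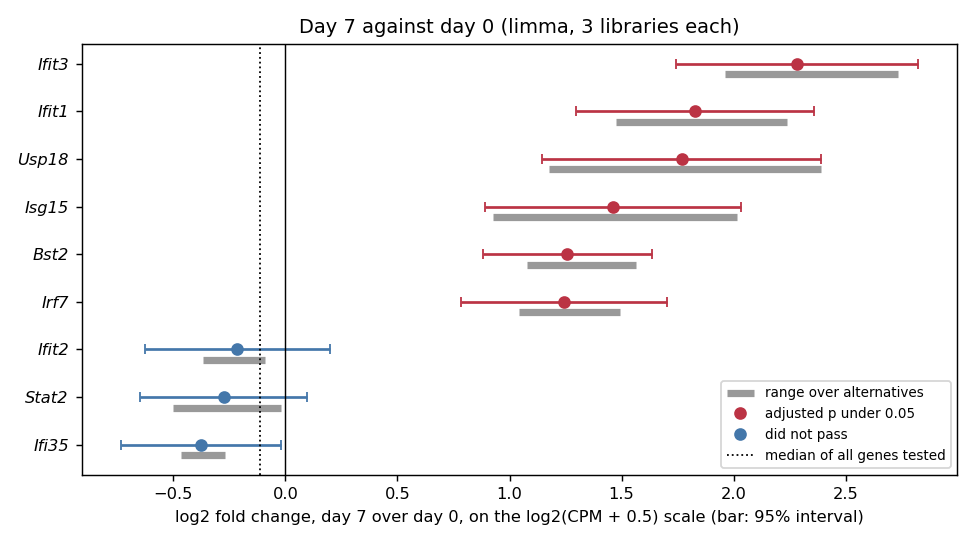
Log2 fold change from day 0 to day 7 (x axis, log2(CPM + 0.5) scale) for each member, with its 95% interval as a thin bar and the range over 18 alternative analyses as a grey bar (17 for Ifit3 and Usp18). The 6 members in red passed at adjusted p under 0.05 and their grey bars stay above 0, while those of Ifit2, Stat2 and Ifi35 stay below 0.

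In RPKM the members covered a wide range at each stage. At day 7 Bst2 (61.8) was far above Isg15 (11.5) and Ifi35 (9.04), whose libraries touched, and below these came Stat2 (5.16), Ifit1 (4.93), Ifit3 (4.26), Usp18 (3.63), Irf7 (2.64) and Ifit2 (1.92). Each neighbouring pair from Stat2 down to Ifit2 overlapped in its libraries. At day 0 the order was Bst2, Ifi35, Stat2, Isg15, Ifit2, Ifit1, Usp18, Irf7 and Ifit3. Ifit3 was thus last of the 9 at day 0 and in place 6 at day 7, and Ifit2 went from place 5 to the last.

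At day 4 the mean level was above that of day 0 for 6 members and below it for 3, and for 7 members it lay between the means of days 0 and 7. Ifit3 and Irf7, 2 members, were above day 0 without overlap, against 21.1% of genes, and Ifit2 and Ifi35, also 2, were below it, against 22.2%. From day 4 to day 7 the mean rose for 8 members. Isg15, Usp18, Ifit2, Ifit3 and Bst2, 5 members, were higher at day 7 without overlap, against 13.8% of genes, and 0 were lower, against 24.6%. Day 4 values came from a table of their own and from deeper libraries, so these are positions of levels and not tested changes.

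The libraries of a stage differed in the same direction across the members. Day 0 replicate 2 was the highest day 0 library for all 9 members, against 43.4% of genes tested. Day 7 replicate 1 was the lowest day 7 library for all 9 members, against 13.2%. Both patterns were noticed after the values were seen. With median-of-ratios scaling the counts were 8 of 9, against 26.4% of genes, and 9 of 9, against 29.1%. Members of 1 pathway are not independent of each other, so these counts describe the libraries and carry no p-value.

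Summed over the 9 members, the level was 73.8, 125.7 and 75.3 CPM in day 0 replicates 1, 2 and 3, then 86.4, 95.5 and 105.8 at day 4, and 118.1, 150.9 and 140.7 at day 7. Day 0 replicate 2 was thus above the lowest day 7 library. For the 6 members that rose, the sums were 23.9, 53.0 and 24.0 CPM at day 0, 43.5, 52.5 and 55.9 at day 4, and 75.4, 103.9 and 92.9 at day 7, an order between days 0 and 7 that the choice of these members fixes. The members' coefficient of variation between libraries had a median of 40.8% at day 0, against 18.1% for 6366 genes in the same range of levels. It was 13.0% against 8.53% at day 4, and 18.7% against 9.45% at day 7. Usp18 at day 0 varied most, at 99.1%, and Stat2 at day 7 least, at 3.08%.

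Macrophages, which express interferon-stimulated genes, can be carried along in such cultures, and their markers were present. Of 14 macrophage markers 12 were tested and 12 rose from day 0 to day 7, beside 12.6% of all genes higher. Among them was Csf1r, the receptor that macrophages need to live, at 0.98 ± 0.22 on the log2 scale (SE, adjusted p = 0.000466). The mean of Ptprc was 0.650 CPM at day 0 and 2.29 at day 7, so it passed the filter on low values through day 7. Summed, the 14 markers stood at 74.0, 126.4 and 80.8 CPM at day 0, 157.9, 169.2 and 147.7 at day 4, and 205.2, 157.5 and 185.1 at day 7, without overlap between day 0 and the later stages. Day 0 replicate 2 was highest at day 0 for 11 of the 12 tested markers, as it was for the members. At day 7 the order was the reverse of the members' order: replicate 1 was the highest for 10 of the 12 markers and the lowest for none, whereas it was the lowest for all 9 members. The share of all genes highest in that library was not counted, and the markers were not rescaled. Median-of-ratios factors relative to depth were 1.01, 0.904 and 0.991 for day 7 replicates 1, 2 and 3. A typical gene thus also stood highest in replicate 1 in CPM. In a mixed culture, more RNA per cell and more cells of a type cannot be told apart, and the part of macrophages in the members' rise was not tested.

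**Figure D4:**
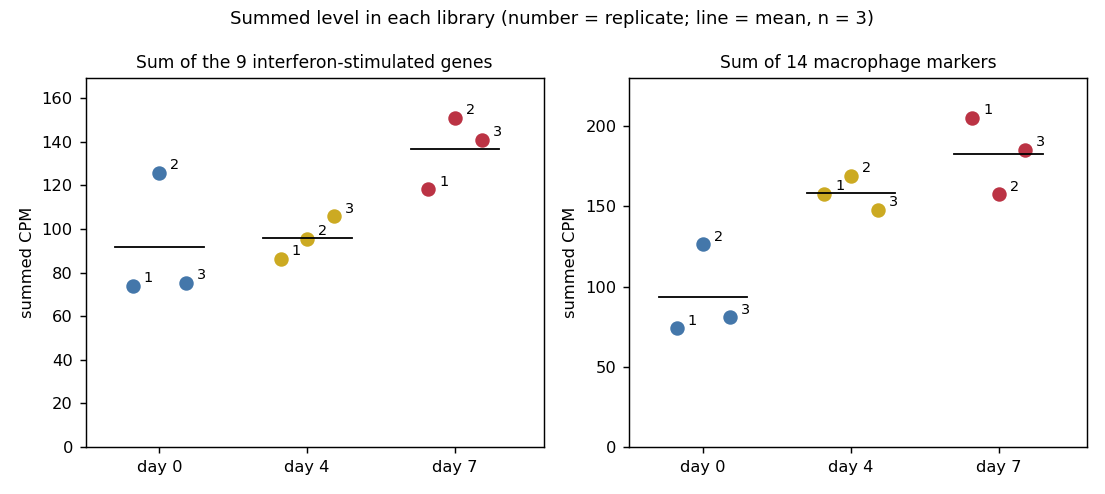
Summed CPM (y axes, from 0) of the 9 members on the left and of 14 macrophage markers on the right, by day (x axes), with 1 numbered point per library and a line at the mean of 3. Day 0 replicate 2 is the highest day 0 point in both panels, and at day 7 the order of the replicates is reversed between the panels.

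Markers of some other cell types were near 0. Those of lymphocytes and plasmacytoid dendritic cells, the main makers of type I interferon in blood, summed to at most 0.334 CPM in a library and endothelial markers to at most 2.34 CPM, and 0 of either list were tested. Of 4 osteoclast genes tested 3 rose and 1 fell, beside 12.6% of all genes higher and 18.6% lower. The mean of Atp6v0d2, which rose, was 0.557 CPM at day 0 and 1.85 at day 7, so it passed the filter on low values through day 7. Genes that respond to enzymatic dissociation summed to 201 to 238 CPM at day 0, 511 to 639 at day 4 and 246 to 348 at day 7. Of these 8 genes 4 were higher and 1 lower at day 7, beside the same 12.6% and 18.6% of all genes. They were highest at day 4, where the members' mean was between the other stages in 7 of 9 cases, and their part in the members' levels was not tested.

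Each member was set against the mean of the other 8 over the 9 libraries, as standardised log2(CPM + 0.5). Pearson's r was 0.84 for Isg15, 0.85 for Usp18, 0.83 for Ifit1, 0.80 for Ifit3, 0.85 for Bst2 and 0.68 for Irf7. It was 0.16 for Stat2, 0.05 for Ifit2 and -0.25 for Ifi35. The points share the stages and the library totals, and most of the other 8 rose, so these values are descriptions and largely restate the rise. Among 9097 other genes of at least 10 CPM, the ones most like the members' mean were Sybu (r = 0.88), Banf1 (0.88), Rps16 (0.87), Arl4d (0.87), Atf1 (0.86), Parp9 (0.85), Vamp4 (0.84) and Fam50a (0.82), and none was over 0.9. Parp9 is the only one of these in the pathway lists below, and its log2 fold change of 0.31 ± 0.18 (adjusted p = 0.184) did not pass.

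The rest of the pathway was read from 10 lists with 126 symbols, of which 125 matched and 89 were tested. Of the 89, 18 rose, 17 fell and 54 did not pass, which is 20.2% and 19.1% beside 12.6% and 18.6% of all genes. Their median log2 fold change was -0.10, close to that of all genes and below the 1.26 of the members. The 17 that fell became 9 without day 0 replicate 2, 29 without day 0 replicate 3 and 10 without day 7 replicate 1. Day 0 replicate 2 was the highest day 0 library for 66 of them, 74.2%.

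**Figure D5:**
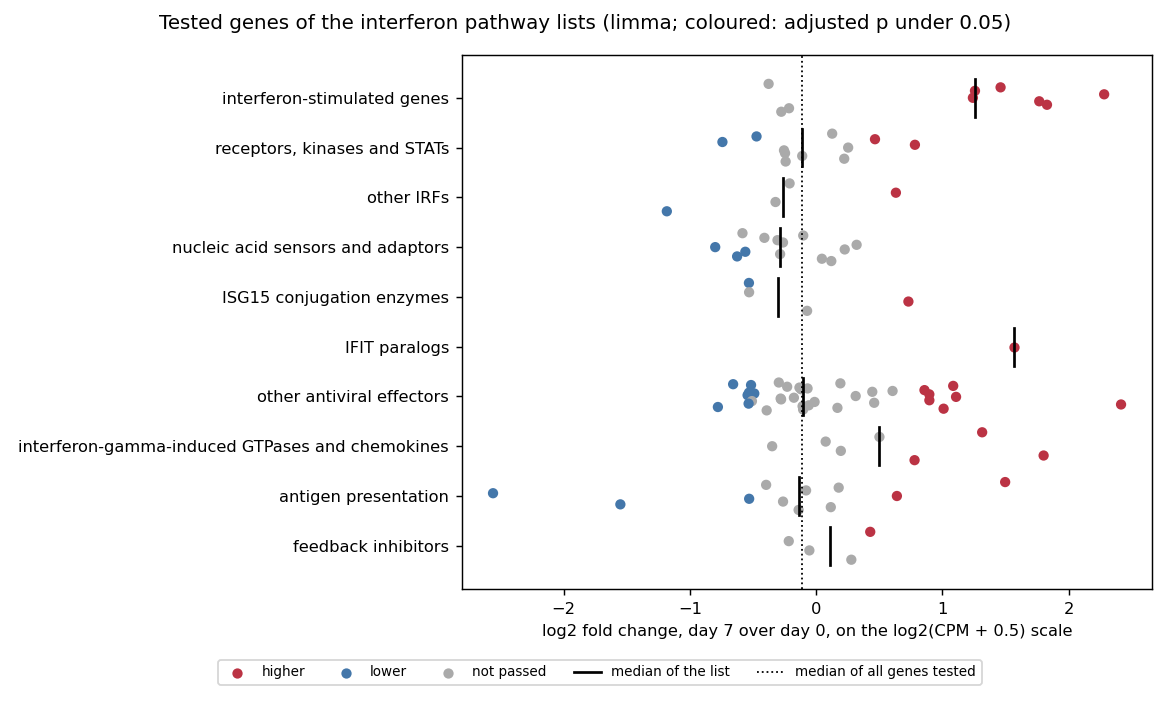
Log2 fold change from day 0 to day 7 (x axis) of each tested gene, by list (y axis), red where higher, blue where lower and grey where the test was not passed, with short bars at list medians and a dotted line at the median of all genes tested, -0.11. The members at the top have the median 1.26, and most other lists lie on both sides of the dotted line.

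The interferons themselves were at or near the limit of detection. Of 10 genes for type I, II and III interferons, 8 had 0 reads in all 9 libraries, among them Ifnb1, the type I interferon that fibroblasts make, and all 10 had at most 3 reads in any library. With 0 reads in a library, the limit that a count of 0 allows is 3 reads, so none of them could be compared at this depth.

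Of 11 tested receptors, kinases and STATs, 2 rose, 2 fell and 7 did not pass, beside 12.6% of all genes higher and 18.6% lower. Jak2, a kinase of the interferon-gamma receptor, rose by 0.78 ± 0.16 (SE, adjusted p = 0.000113), from 9.29 to 12.7 RPKM at day 0 to 17.9 to 21.8 at day 7. Jak1, the kinase shared by both receptors, fell by 0.74 ± 0.15 (adjusted p = 0.000111), from 25.5 to 29.8 RPKM to 15.5 to 17. The subunits of the interferon-gamma receptor went opposite ways, with Ifngr1 at 0.47 ± 0.16 (adjusted p = 0.0204) and Ifngr2 at -0.47 ± 0.15 (adjusted p = 0.0155). The Ifngr1 call was lost without day 7 replicate 1, 2 or 3 (adjusted p 0.0949, 0.0780 and 0.0660). The Ifngr2 call was lost without day 0 replicate 1 or 2 (0.0686 and 0.0944) or without day 7 replicate 1, 2 or 3 (0.0653, 0.0862 and 0.0536).

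The type I receptor and Irf9, a partner of Stat2, did not pass. Ifnar1 had a log2 fold change of -0.25 ± 0.16 (adjusted p = 0.246) and Ifnar2 of 0.13 ± 0.17 (adjusted p = 0.606). Irf9 was at 0.22 ± 0.17 (adjusted p = 0.352), at 4.2 to 6.62 RPKM over days 0 and 7, and like Stat2 it overlapped between these stages. Ifnar1 passed without day 0 replicate 3, at -0.38 with an adjusted p of 0.00596, and with the 5 variable features left out (0.025).

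Among the other interferon regulatory factors, 4 were tested. Irf1, a factor induced mainly by interferon-gamma, stood at 12.6, 12.4 and 11.2 RPKM at day 0, 7.07, 7.6 and 6.59 at day 4, and 5.41, 4.12 and 6.47 at day 7. It fell by 1.18 ± 0.17 on the log2 scale (SE, adjusted p = 2.44e-07), in contrast to Irf7. Irf5 rose by 0.63 ± 0.24 (adjusted p = 0.0392), a call that was lost without day 0 replicate 1 or 3 (0.0519 and 0.131) or day 7 replicate 1 or 2 (0.259 and 0.0676), and with no filter on low values (0.151). Of 13 tested sensors of nucleic acids and their adaptors, 0 rose, 3 fell and 10 did not pass, beside 12.6% of all genes higher and 18.6% lower. Those that fell were Tmem173, the adaptor STING of the DNA-sensing pathway, by 0.80 ± 0.19 (adjusted p = 0.00101), Tlr4, the receptor for bacterial lipopolysaccharide, by 0.63 ± 0.18 (adjusted p = 0.00599), and Ddx58, the RNA sensor RIG-I, by 0.56 ± 0.16 (adjusted p = 0.00604). Without day 0 replicate 2 Tlr4 and Ddx58 did not pass (0.0538 and 0.0888), and without day 7 replicate 1 neither did (0.0546 and 0.0591).

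Of the 4 enzymes of Isg15 conjugation, all tested, 1 rose, 1 fell and 2 did not pass, beside 12.6% of all genes higher and 18.6% lower. Uba7, which activates it, was at -0.53 ± 0.20 (adjusted p = 0.0353), and Ube2l6, which carries it, at -0.07 ± 0.19 (adjusted p = 0.823), a value whose sign turned under other scalings. Herc6, the main ligase in mouse, was at -0.53 ± 0.23 (adjusted p = 0.0809), and Trim25, a ligase with other roles, at 0.73 ± 0.22 (adjusted p = 0.0071). Of these calls, that of Trim25 was lost without day 0 replicate 1 (adjusted p = 0.254), with median-of-ratios scaling (0.051), edgeR (0.0509) or DESeq2 (0.169), and with the 5 variable features left out of the totals (0.0705). That of Uba7 was lost without day 0 replicate 1 or 2 (0.104 and 0.239) and without day 7 replicate 1, 2 or 3 (0.0638, 0.129 and 0.112), with the RPKM table (0.061), with no filter on low values (0.0919) and with the replicate number as a block (0.0623). Herc6 passed without day 0 replicate 3 (0.00993) or day 7 replicate 2 (0.0419), and with weighted voom (0.0296).

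Among other antiviral effectors, 34 of 45 were tested, and these had 7 that rose, 7 that fell and 20 that did not pass, beside 12.6% of all genes higher and 18.6% lower. Isg20, an exonuclease for single-stranded RNA, was at 1.41, 1.14 and 1.27 RPKM at day 0, 5.82, 9.33 and 7.02 at day 4, and 8.26, 8.20 and 7.46 at day 7. Unlike for the members, day 0 replicate 2 was the lowest of its stage for Isg20, whose log2 fold change was 2.42 ± 0.21 (SE, adjusted p = 1.05e-13). Cmpk2, a mitochondrial nucleotide kinase, rose by 1.11 ± 0.28 (adjusted p = 0.00192) and Rtp4, a chaperone of receptors, by 1.09 ± 0.27 (adjusted p = 0.00127). Lgals9, a galectin, fell by 0.78 ± 0.18 (adjusted p = 0.000439), Ifi27, a mitochondrial protein, by 0.66 ± 0.16 (adjusted p = 0.000881), and Parp12, an ADP-ribosyltransferase, by 0.54 ± 0.17 (adjusted p = 0.00976). The Parp12 call was lost without day 0 replicate 2 (0.106) or day 7 replicate 1 (0.0638).

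Of 14 genes induced mainly by interferon-gamma, its GTPases and chemokines, 13 matched and 7 were tested. Of the 7 tested 3 rose and 0 fell by limma, beside 12.6% of all genes higher and 18.6% lower. The 3 were Iigp1 at 1.80 ± 0.30 (adjusted p = 3.81e-06), Irgm1 at 1.32 ± 0.19 (adjusted p = 1.23e-07) and Gbp3 at 0.78 ± 0.29 (adjusted p = 0.036). These belong to GTPase families that act on the vacuoles of intracellular parasites. Iigp1 had 4, 14 and 1 reads in the day 0 libraries. Its mean was 0.528 CPM at day 0 and 2.83 at day 7, so it passed the filter on low values through day 7. Gbp3 overlapped between days 0 and 7, and its call was lost without day 0 replicate 1 or 3 (0.104 and 0.190) or day 7 replicate 2 (0.468). It passed in 8 of 17 alternatives, and was also lost with median-of-ratios scaling (0.106), the RPKM table (0.0755), weighted voom (0.291), edgeR (0.103), no filter on low values (0.142) and the 5 variable features left out (0.134). Of 11 tested genes of antigen presentation 2 rose and 3 fell, beside the same shares of all genes, 12.6% higher and 18.6% lower. H2-K1, a class I heavy chain, was at 21.3 to 29.0 RPKM at day 0 and 61.5 to 74.2 at day 7, a log2 fold change of 1.5 ± 0.16 (SE, adjusted p = 5.77e-11). Psmb8, an immunoproteasome subunit, rose by 0.64 ± 0.21 (adjusted p = 0.018), a call lost without day 0 replicate 3 (0.135) or day 7 replicate 1 or 3 (0.0905 and 0.1), and with no filter on low values (0.0677).

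Cd74, the invariant chain of class II molecules, fell by 2.56 ± 0.25 (adjusted p = 1.06e-11), Nlrc5, the transactivator of class I genes, by 1.55 ± 0.23 (adjusted p = 3.04e-07) and Tapbp, which loads peptides on class I molecules, by 0.53 ± 0.15 (adjusted p = 0.00596). The mean of Cd74 was 5.87 CPM at day 0 and 0.582 at day 7, so it passed the filter on low values through day 0. Without day 0 replicate 2 Tapbp did not pass (0.0603). Among 4 tested feedback inhibitors 1 rose, beside 12.6% of all genes higher. This was the phosphatase Ptpn2, at 0.43 ± 0.17 (adjusted p = 0.0421). Its call was lost without day 7 replicate 1, 2 or 3 (0.121, 0.113 and 0.134). It was also lost with no filter on low values (0.0604), with the RPKM table (0.0613) and with the replicate number as a block (0.0784).

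The response element was set beside the calls of all 9771 tested genes with a RefSeq promoter. Of 32 genes with the longer form 7 were higher and 7 lower at day 7, 21.9% each, against 12.3% and 18.1% of those without. The 7 that were higher included the members Ifit1, Ifit3 and Bst2 and the paralog Ifit3b. The median log2 fold change of the 32 genes, -0.11, was that of the genes without the longer form. Of 344 genes with the core 13.7% were higher and 19.8% lower, against 12.3% and 18.1% of those without. The members with the longer form (Ifit1, Ifit3 and Bst2) all rose, and of the members with only the core Isg15 rose and Stat2 did not pass. Irf7 rose with neither form in its window, and Ifit2 and Ifi35, with neither, did not pass.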

How the data were processed

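RNA was extracted from 9 libraries of mouse calvarial cells (3 per stage), depleted of ribosomal RNA and sequenced by the authors. They aligned reads with STAR (2.0.4b in the submitters' processing notes) to GRCm38 and counted them per gene with featureCounts. Whether the counting used strand is not given in the sources used here. The deposited tables hold CPM and RPKM as made by the authors, with day 4 in tables of its own. All CPM values were whole multiples of 1 read within 0.05 reads, so counts were recovered for the alternatives.

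Days 0 and 7 were compared with limma 3.58.1 (trended variance, R 4.3.3) on log2(CPM + 0.5), over 12712 genes with a mean of at least 1 CPM in the 6 libraries, with Benjamini-Hochberg adjustment at 0.05. A fold change on this scale understates the change of genes with low values. The study's methods used TMM with weighted voom, which takes counts and was run as an alternative on the recovered reads, as were edgeR 4.0.16 and DESeq2 1.42.0. The scripts were tested on simulated data. Whole-gene totals set the precision: a gene with few reads, such as Usp18 with 3 in a day 0 library, is known only coarsely there. Motif letters came from RefSeq promoters, and shared exons from GENCODE annotation of GRCm38.

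The replicates are stated to be biological, without saying whether they came from separate litters, so p-values concern these cultures only. In the limma fit each gene's own spread counted for less than the variance shared across genes (4 residual against 42.9 prior degrees of freedom). The members and all lists were chosen with earlier results of these data known. All 9 members are named; from each list the text names at most the 3 largest rises and 3 largest falls past the threshold, and by a fixed rule Irf9, Ifnar1, Ifnar2, Ifnb1, the IFIT paralogs and the conjugation enzymes. A gene that the rule also names is not reported here.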

Additional observations from a re-analysis of the deposited data

How the results depend on the processing

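Over 18 alternatives, 17 planned and 1 chosen after seeing the data (leaving the 5 variable features out of the totals), 5 of the 6 raised members passed wherever they were tested and Isg15 missed only with DESeq2; at a minimum of 5 CPM 4 members were higher because Ifit3 and Usp18 were not tested. The number of members lower went from 0 to 1 with the weighted voom fit, with the 5 features left out, and from 0 to 1 over the fits without 1 library. The number higher was 6 to 6 over those fits. Genes higher numbered 2827 with median-of-ratios scaling, 3148 with weighted voom, 2818 with edgeR and 2581 with DESeq2, against 1602. They ranged from 1151 to 1631 without 1 library. Genes lower ranged from 1521 (without day 0 replicate 2) to 4699 (without day 0 replicate 3) against 2369, with 1554 without day 7 replicate 2 and 3945 without the 5 features. The share of calls that were higher was 51.4% with weighted voom, 51.5% with edgeR, 52.6% with DESeq2, 25.8% without day 0 replicate 3 and 32.4% without the 5 features. Pathway genes higher numbered 9 at a minimum of 5 CPM, where fewer genes are tested, and 12 to 23 without 1 library, against 18. Pathway genes lower numbered 26 without the 5 features and 9 to 29 without 1 library (9 without day 0 replicate 2, 29 without day 0 replicate 3, 10 without day 7 replicate 1), against 17. The causes were not tested.

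The sign of Ube2l6 turned to 0.0312 with median-of-ratios scaling, 0.0348 with weighted voom, 0.0436 with edgeR and with DESeq2, 0.00796 without day 0 replicate 2 and 0.0034 without day 7 replicate 3, and over the fits without 1 library it ran from -0.14 to 0.00796. Same-numbered libraries of days 0 and 7 did not deviate together (r = -0.02, -0.18 and -0.44), and they were not treated as pairs. With 3 libraries per stage that differ in composition, these values cannot show whether same-numbered cultures shared a source of cells. A fit with the replicate number as a block called 3413 genes, against 3971, and 6 members, as without it.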
